A study of Mus musculus with 12 samples.

Results

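The 9 genes described here encode components and receptors of the complement system, namely C1qa, C1qb, C1qc, C1ra, C1s1, C3, C4b, C3ar1 and C5ar1. They were chosen by name, as the rows of the count table whose Ensembl identifier carries one of these symbols, and they are 9 of 55573 genes in the table. The cells were fibroblasts, the main cell of connective tissue, grown from C57BL/6 mouse embryos of stage E13.5 (mouse embryonic fibroblasts, MEFs). They carry the genes of Oct4, Sox2, Klf4 and cMyc (OSKM), which can turn fibroblasts into pluripotent stem cells, under a switch that doxycycline turns on. The group MEF received neither doxycycline nor vitamin B12, MEF+B12 received 2 µM B12, OSKM received doxycycline at 1 µg/ml, and OSKM+B12 received both, in each case for 72 h in the medium used for pluripotent cells. Each of the 4 groups held 1 library from each of 3 clones, which are cells of 3 different embryos, so that bulk RNA of 12 libraries was compared. All groups carry these genes and share the medium, and because only the induced groups received doxycycline, the drug and the factors cannot be told apart. The OSKM library of clone 1 was known from earlier results of these data to stand apart in its pseudogene counts, and the counts of called members and other complement genes printed here are also given without it where they changed. For doxycycline the labels' concentration is given, where the study's methods write 1 mg/ml. The titles date clone 1 to a later year than the other clones, so the year and the difference between clone 1 and the others cannot be told apart.

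Complement is a set of proteins that tag and help to remove microbes, immune complexes and dying cells. In the classical pathway, C1q binds its target and activates the proteases C1r and C1s, which cleave C4 and C2. The resulting enzyme cleaves C3, and the small fragments of C3 and C5 released in the cascade act on cells through C3aR1 and C5aR1. C1q is largely made by macrophages, whereas C1r, C1s, C3 and C4 are made by fibroblasts as well as by the liver.

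All 9 genes were detected in all 12 libraries and passed the filter on low counts. The least abundant, C5ar1, had between 917 and 4397 counts per library, and the most abundant, C1s1, had between 20194 and 34235. Levels below are CPM, the count of a gene scaled to a library of 1e+06 counts after normalization. Ratios between genes and sums over lists are given in CPM without scaling to gene length. The members were ranked by level only per kilobase of annotated exon. On that scale, C1s1 was highest at 142 ± 22.5 CPM per kb (SD, n = 12), followed by C1qb at 119 ± 30.3, C1ra at 112 ± 17.7, C1qa at 98.3 ± 27.0 and C1qc at 54.8 ± 14.6. C3 was at 34.2 ± 6.97 CPM per kb, C4b at 14.0 ± 5.79, C3ar1 at 12.8 ± 4.66 and C5ar1 at 12.7 ± 5.24. Neighbours in this order differed by less than the larger of their SDs among the first 4 genes and among the last 3, whereas C1qc and C3 each differed from the genes above and below by more than that. The place of C1qc depended on the length used, since its longest transcript is shorter than its annotated exons together and gave 88.0 ± 23.4 CPM per kb.

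The fibroblast label was checked with 10 fibroblast markers, all of which were detected, and whose summed level ranged from 88192 to 141825 CPM per library. A list of 12 macrophage markers (Adgre1, Csf1r, Cd68, Mrc1, Cx3cr1, Fcgr1, Mertk, Ptprc, Aif1, Tyrobp, Cd14 and Lyz2) was also detected in full, with a summed level between 1191 and 3011 CPM. Markers of T and B cells summed to at most 0.0517 CPM, and those of neutrophils and mast cells to at most 0.121 CPM. Hepatocyte markers summed to 0.346 to 1.43 CPM. Of the 2 of them tested, Afp, which encodes alpha-fetoprotein, was called higher with B12, at 0.257 to 0.490 CPM without and 0.547 to 1.01 CPM with it, by 1.16 ± 0.19 in log2 (edgeR adjusted p = 0.00468), and Alb, which encodes albumin, was at 0.43 ± 0.30 (adjusted p = 0.546). Endothelial markers summed to 41.8 to 46.5 CPM in the uninduced and 48.7 to 145 CPM in the induced libraries, and epithelial markers to 0.551 to 1.13 and 0.630 to 4.71 CPM. Most of the endothelial sum was Tek, at 34.3 to 42.3 CPM uninduced and 41.2 to 139 CPM induced. Cdh5 was at a mean of 0.920 CPM in MEF and 2.42 CPM in OSKM, and Kdr at 3.91 and 3.89 CPM. Pecam1, Emcn and Cldn5 were each at most 0.279 CPM. Among the epithelial markers, Krt8 was at 0.288 and 1.96 CPM, Cdh1 at 0.138 and 0.462 CPM, and Krt18 at 0.388 and 0.373 CPM. With induction, edgeR called 0 of the 3 endothelial and 0 of the 3 epithelial markers tested. Of each list 2 had an unadjusted p under 0.05, both without and with B12, where 19% and 14.9% of all genes did. DESeq2 called 2 endothelial markers, Cdh5 and Tek, in both and 1 epithelial marker, Cdh1, with B12. The part of these markers in the results below was not tested. The 4 factor genes checked the induction. With doxycycline, edgeR called Pou5f1, which encodes Oct4, and Sox2 higher, both without and with B12. Klf4 and Myc were not called. Klf4 was at a mean of 135 CPM in MEF and 121 CPM in OSKM, and Myc at 19.2 and 39.2 CPM. In clone 3 Myc was at 20.2 CPM in MEF+B12 and 21.9 CPM in OSKM+B12. By edgeR, 4 of the factor genes without and 3 with B12 had an unadjusted p under 0.05. With doxycycline the level of Pou5f1 was 18.5 to 20.7 CPM in clones 1 and 2 but 2.34 to 2.86 CPM in clone 3. Without doxycycline it was at most 0.468 CPM. Clone 3 thus carried less Pou5f1 RNA after induction.

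The 3 C1q chain genes lie next to each other on chromosome 4 (GRCm38) on the minus strand. C1qb spans 136880129 to 136886187, C1qc 136889804 to 136893065 and C1qa 136895917 to 136898803, within 18675 bases. C1ra (chromosome 6, plus strand, 124512405 to 124523443) and C1s1 (minus strand, 124530345 to 124542359) are 6901 bases apart and point towards each other. C3ar1 lies elsewhere on chromosome 6 (122847138 to 122856161), C5ar1 on chromosome 7 (16246743 to 16259540), and C3 (57203970 to 57228136) and C4b (34728380 to 34743882) on chromosome 17. These spans are those of GENCODE M21, and the start of a gene in RefSeq can differ from them. RefSeq promoter windows on GRCm38.p6 run from 250 bases before a gene's RefSeq start to 50 bases after it. Such windows were found for 7 of the 9 genes, and not for C1qa and C4b. Those of 4 genes whose level was higher with B12 are shown with that of C1ra, whose level was not, so that the windows can be read against the expression data. Capitals mark matches, on either strand, to GAGGAA (the PU.1 box, bound by a transcription factor of macrophages and other blood cells) and GGAAGT (an ETS core, recognised by the wider family to which PU.1 belongs).

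C1qb, chr4:136886151-136886450, minus strand: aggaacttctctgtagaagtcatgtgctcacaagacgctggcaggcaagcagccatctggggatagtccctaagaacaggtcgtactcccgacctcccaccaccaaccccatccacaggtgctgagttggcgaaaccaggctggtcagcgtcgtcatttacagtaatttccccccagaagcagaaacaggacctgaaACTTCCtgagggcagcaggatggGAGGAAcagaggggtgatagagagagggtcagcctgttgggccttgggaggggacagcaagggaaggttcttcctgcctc
C1qc, chr4:136892865-136893164, minus strand: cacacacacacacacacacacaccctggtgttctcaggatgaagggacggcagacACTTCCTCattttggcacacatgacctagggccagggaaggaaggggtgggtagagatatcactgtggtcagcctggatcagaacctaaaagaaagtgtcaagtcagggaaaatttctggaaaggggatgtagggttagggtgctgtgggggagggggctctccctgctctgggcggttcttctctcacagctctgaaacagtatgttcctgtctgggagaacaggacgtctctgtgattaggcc
C3ar1, chr6:122856108-122856407, minus strand: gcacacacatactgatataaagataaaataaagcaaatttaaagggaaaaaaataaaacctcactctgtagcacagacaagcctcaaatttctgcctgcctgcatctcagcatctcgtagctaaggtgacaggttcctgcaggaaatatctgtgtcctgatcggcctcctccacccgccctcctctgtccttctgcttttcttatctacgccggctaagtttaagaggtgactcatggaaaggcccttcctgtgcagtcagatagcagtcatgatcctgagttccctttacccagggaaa
C5ar1, chr7:16259289-16259588, minus strand: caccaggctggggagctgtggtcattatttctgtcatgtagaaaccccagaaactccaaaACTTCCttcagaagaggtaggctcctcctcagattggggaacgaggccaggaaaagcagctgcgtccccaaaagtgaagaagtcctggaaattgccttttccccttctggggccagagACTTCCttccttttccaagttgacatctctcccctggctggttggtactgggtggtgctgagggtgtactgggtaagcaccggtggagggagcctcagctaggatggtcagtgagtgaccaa
C1ra, chr6:124512371-124512670, plus strand: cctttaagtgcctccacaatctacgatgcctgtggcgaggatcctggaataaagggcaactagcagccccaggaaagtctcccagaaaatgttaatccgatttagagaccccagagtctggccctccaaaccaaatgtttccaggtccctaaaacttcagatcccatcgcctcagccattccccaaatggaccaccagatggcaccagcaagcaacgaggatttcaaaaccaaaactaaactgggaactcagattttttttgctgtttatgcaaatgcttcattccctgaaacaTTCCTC

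The motifs were chosen after the sequences had been seen, and a match is a description of letters and not a binding site. The PU.1 box letters were present in the windows of C1qb, C1qc and C1ra, and in 28.3% of 32851 promoter windows of the same length. The ETS core letters were present in C1qb, C1qc and C5ar1, and in 23.8% of all windows. In C1qb the ETS core began 53 bases and the PU.1 box 30 bases before the start. In C1qc the pair overlapped and began 195 and 193 bases before it. In C5ar1 the ETS core occurred 2 times, 190 and 72 bases before the start. All starts here are those of RefSeq, and both C5ar1 matches lie within the GENCODE span of that gene. The match in C1ra began at base 45 after the RefSeq start, also within the GENCODE span. The C3ar1 window held neither and had an AP-1 motif (TGANTCA) 22 bases before the start, found in 7.81% of windows. C/EBP letters (TTNNGNAA) were present in 5 of the 7 genes, C1qc, C1ra, C1s1, C3 and C5ar1, and in 40.7% of windows, and 3 such matches lay between 70 and 45 bases before the start of C3. STAT letters (TTCNNNGAA) occurred in C1ra and in 8.30% of windows, and the TATA box (TATAAA) in C3 and C3ar1 and in 13.6%.

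The first comparison asks how B12 supplementation changed these genes in fibroblasts with and without induction. RNA of the 3 C1q chains and of both anaphylatoxin receptors was higher with B12 in every clone, with and without induction, by 1.43-fold to 1.72-fold on average over both states. The classical proteases C1ra and C1s1 and the central components C3 and C4b did not pass the test. By the quasi-likelihood test of edgeR with Benjamini-Hochberg adjustment over 19174 genes and a threshold of 0.05, 5 of the 9 genes were called higher and 0 lower in the average over both states, where 3.46% of all genes tested were called higher and 0.381% lower. The same 5 genes were called higher in OSKM, where 1.05% of all genes were, and in MEF, where 1.37% were. The median log2 fold change of the 9 genes was 0.52, against -0.013 over all genes tested. 

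**Figure D1:**
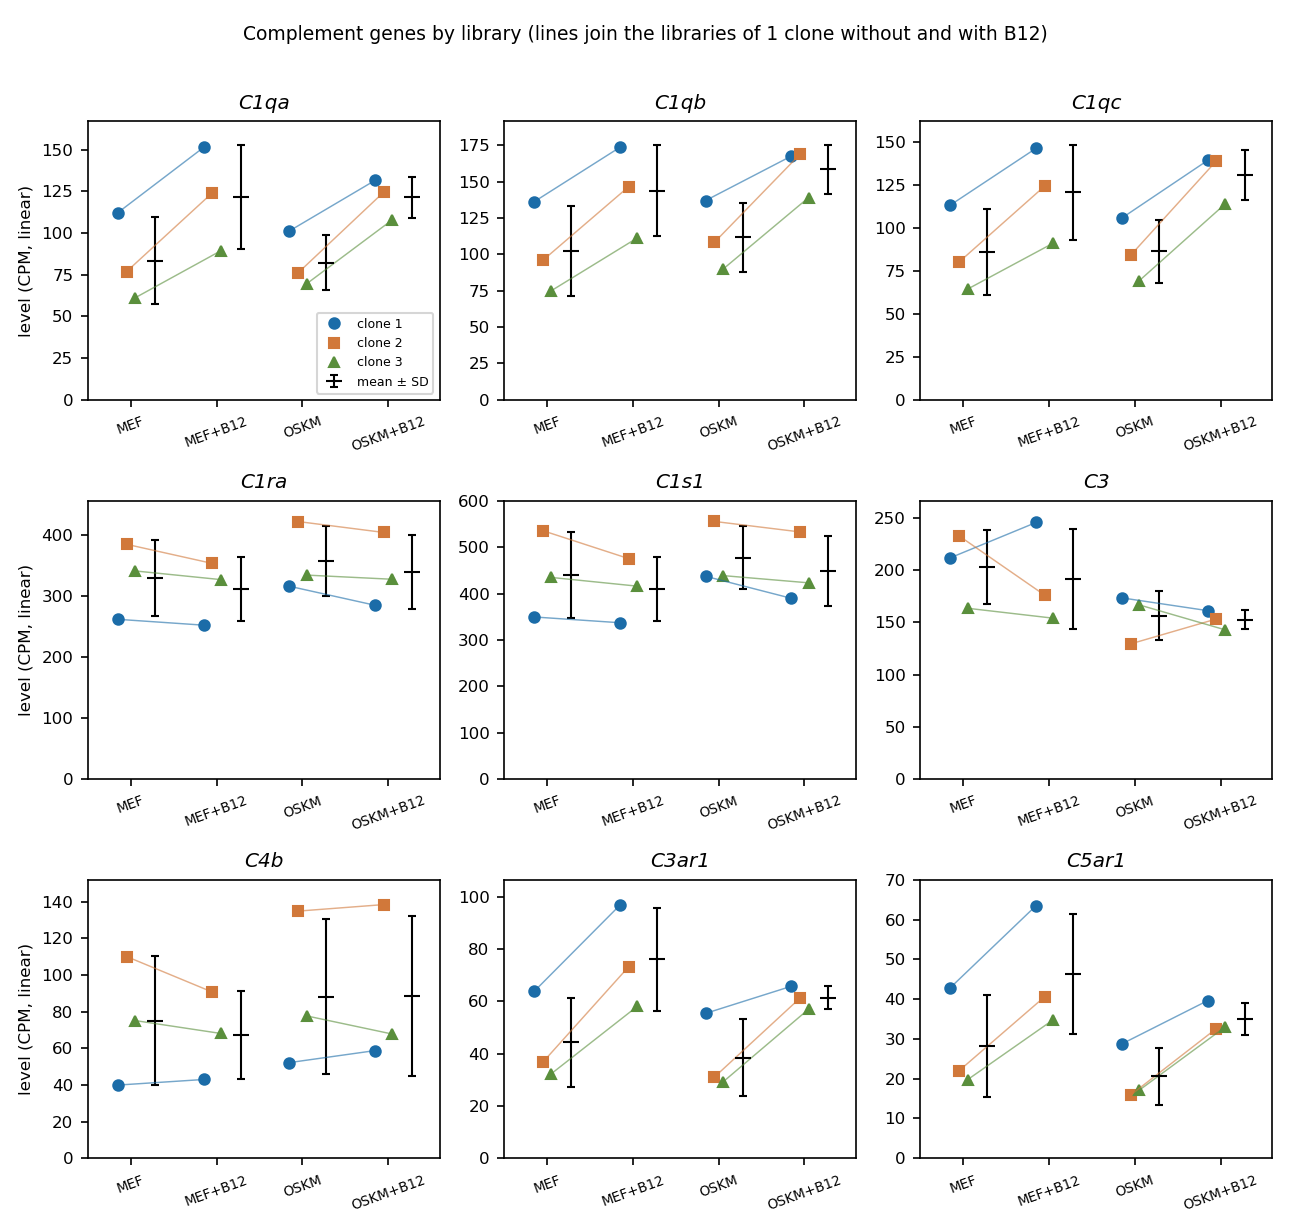
Level of each gene in CPM (linear axis from 0) in the 12 libraries, by group along the horizontal axis, with symbols for clones 1 to 3, thin lines joining the libraries of 1 clone without and with B12, and a bar for the mean ± SD of 3 libraries. The lines of C1qa, C1qb, C1qc, C3ar1 and C5ar1 rise in all 6 pairs, those of C1ra and C1s1 fall slightly in all 6, and those of C3 and C4b go both ways.

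The C1q chains are the recognition subunit of C1, and the 3 genes moved together. C1qa was at 112, 76.9 and 61.2 CPM in MEF for clones 1, 2 and 3, and at 151, 124 and 89.4 CPM in MEF+B12. It was at 101, 76.1 and 69.6 CPM in OSKM, and at 132, 125 and 108 CPM in OSKM+B12. The ranges overlapped in the uninduced groups because clone 1 without B12 was above clone 3 with it, and they did not overlap in the induced groups. In both states, every library with B12 was above the library of its own clone without it, by 1.30-fold to 1.64-fold. Averaged over both states, the log2 fold change was 0.57 ± 0.068 (SE), with an adjusted p of 0.000900 by edgeR.

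C1qb, the chain with the most counts of the 3, was at 136, 95.9 and 75.1 CPM in MEF for clones 1 to 3, and at 174, 147 and 111 CPM in MEF+B12. In OSKM it was at 137, 108 and 89.8 CPM, and in OSKM+B12 at 168, 169 and 139 CPM. Clone 3 was lowest in each group, and here too only the induced groups did not overlap. The average log2 fold change was 0.52 ± 0.064 (edgeR adjusted p = 0.000994). C1qc rose from 113, 80.1 and 64.4 CPM to 146, 124 and 91.2 CPM in the uninduced cells. It rose from 106, 84.0 and 69.2 CPM to 139, 139 and 114 CPM in the induced cells. Its average log2 fold change was 0.56 ± 0.061 (edgeR adjusted p = 0.000564). The proportions of the chains varied within narrow ranges over the 12 libraries. The ratio of C1qb to C1qa in CPM was between 1.15 and 1.42, and that of C1qc to C1qa between 0.966 and 1.11. The mean ratio of C1qb to C1qa was 1.23 in MEF and 1.19 in MEF+B12. In OSKM and OSKM+B12 it was higher, at 1.36 and 1.31, a difference that was not tested.

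The receptors showed the larger fold changes. C3ar1, the receptor of the C3a fragment, was at 63.9, 36.7 and 32.3 CPM in MEF for clones 1 to 3 and at 96.9, 73.2 and 58.1 CPM in MEF+B12. It was at 55.5, 31.0 and 29.1 CPM in OSKM and at 65.8, 61.3 and 57.1 CPM in OSKM+B12. Clone 1 was highest throughout, and the induced groups did not overlap. The increase was smallest in induced clone 1, at 1.19-fold, and largest in uninduced clone 2, at 1.99-fold. The average log2 fold change was 0.77 ± 0.094 (edgeR adjusted p = 0.000900).

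C5ar1, the receptor of the C5a fragment, was at 42.9, 22.0 and 19.7 CPM in MEF for clones 1 to 3, and at 63.5, 40.6 and 34.8 CPM in MEF+B12. In OSKM it was at 28.8, 15.9 and 17.1 CPM, and in OSKM+B12 at 39.6, 32.6 and 32.9 CPM. Clone 1 stood above the other clones in all groups, and the induced groups did not overlap. The average log2 fold change was 0.78 ± 0.091 (edgeR adjusted p = 0.000717), and the pairs ranged from 1.38-fold to 2.06-fold. Over all genes tested, 8% were higher in all 6 pairs and 4.8% had every OSKM+B12 library above every OSKM library.

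The proteases behaved differently. C1ra, the protease that cleaves C1s, was at 262, 385 and 341 CPM in MEF for clones 1 to 3, and at 252, 354 and 327 CPM in MEF+B12. It was at 316, 423 and 335 CPM in OSKM, and at 285, 405 and 328 CPM in OSKM+B12. Each library with B12 was at 0.901 to 0.980 times the library of its clone without B12, a difference far smaller than that between clones. The average log2 fold change was -0.081 ± 0.043 (edgeR adjusted p = 0.416). C1s1, the protease that cleaves C4 and C2, was at 349.8, 536 and 435 CPM in MEF, 337, 476 and 416 CPM in MEF+B12, 438, 556 and 439 CPM in OSKM, and 390.0, 533 and 423 CPM in OSKM+B12. Its average log2 fold change was -0.096 ± 0.045 (edgeR adjusted p = 0.347), and it too was lower with B12 in 6 of 6 pairs. Over all genes tested, 7.64% were lower in all 6 pairs. The ratio of C1s1 to C1ra in CPM was between 1.27 and 1.39 in all libraries.

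C3, the component on which all activation routes converge, was at 212, 233 and 164 CPM in MEF for clones 1 to 3, and at 246, 176 and 154 CPM in MEF+B12. In OSKM it was at 174, 129 and 167 CPM, and in OSKM+B12 at 161, 153 and 143 CPM. It was higher with B12 in 2 of 6 pairs, and its average log2 fold change was -0.067 ± 0.099 (edgeR adjusted p = 0.792). C4b, whose product forms the next enzyme with C2, was at 39.9, 110.1 and 75.2 CPM in MEF, 43.0, 90.7 and 68.1 CPM in MEF+B12, 52.2, 135 and 77.7 CPM in OSKM, and 58.8, 138 and 67.8 CPM in OSKM+B12. It was higher in 3 of 6 pairs, with an average log2 fold change of -0.048 ± 0.080 (edgeR adjusted p = 0.819). A p that misses the threshold does not show that these 4 genes stayed the same.

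**Figure D2:**
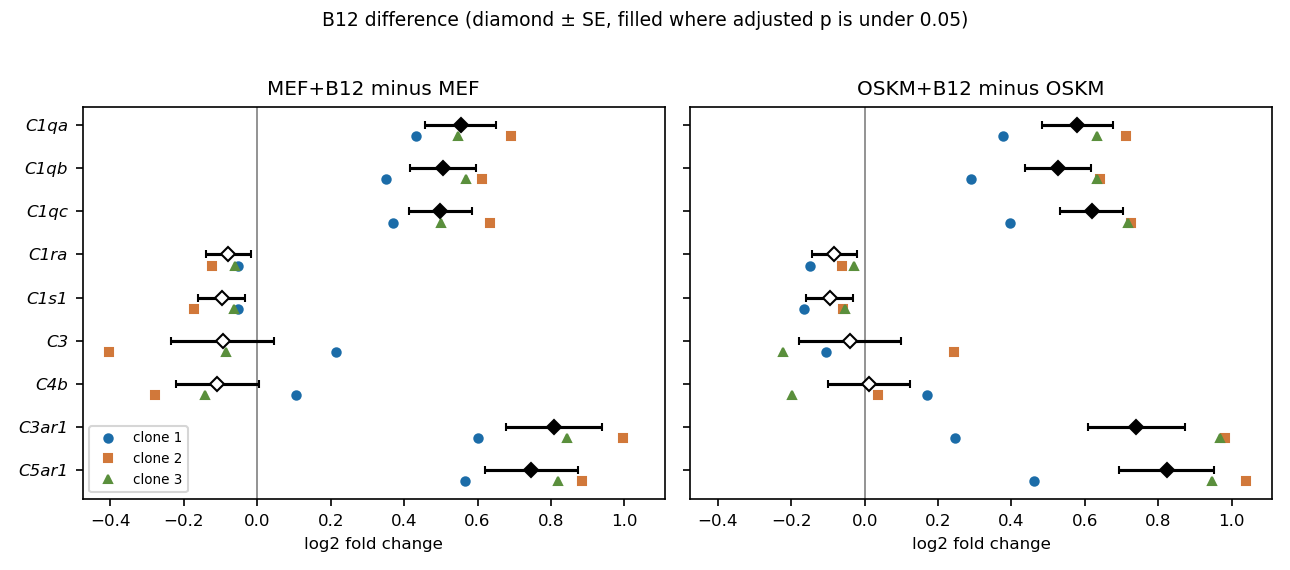
Log2 fold change with B12 of the 9 genes in uninduced cells (left) and induced cells (right), where a diamond and its bar give the fitted value ± SE, filled diamonds have an adjusted p under 0.05, and coloured symbols give clones 1 to 3. The diamonds of the C1q chains and the receptors lie between 0.50 and 0.82, those of the other 4 genes between -0.11 and 0.012, and clone 1 has the smallest increase of the 3 clones for each of the 5 called genes in both states.

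Some members share sequence with a close copy, and counting could divide their reads. Of the 50-base words in their transcripts, C1ra shared 50.8% with other genes (chiefly C1rb), C1s1 21.8% (C1s2) and C4b 34.6% (C4a), and the other 6 members 0%. The C1ra, C1s1 and C4b levels are uncertain to that extent. The counts of C1ra were 2.47 to 2.79 times those of C1rb, those of C1s1 were 9.32 to 9.95 times those of C1s2, and those of C4b were 4.70 to 6.62 times those of C4a. With the counts of each pair added together, the average B12 log2 fold changes were -0.084 for C1ra, -0.094 for C1s1 and -0.055 for C4b.

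The calls depended on clone 2 and on the pairing of libraries by clone. Without clone 2, edgeR called 0 of the 9 genes with B12 in the average, in OSKM and in MEF. Over all genes it then called 0.176%, 0% and 0%. In each comparison 5 members had an unadjusted p under 0.05, where 9.35%, 7.88% and 5.02% of all genes did. The 5 average log2 fold changes were then 0.46 to 0.70 and their adjusted p-values 0.0727 to 0.105. Without clone 3, the 5 genes were called in the average and 0 in either state alone. Of all genes, 1.65% were then called in the average, 0.0676% in OSKM and 0.151% in MEF. Without the OSKM library of clone 1, 3 were called in OSKM, C1qc, C3ar1 and C5ar1, and 5 in the average and in MEF. The shares of all genes called were 0.718% in OSKM, 4.03% in the average and 1.71% in MEF. Without clone as a block, 0 were called in any of the 3, where 0.469% of all genes were called in the average, 0% in OSKM and 0% in MEF. The members with an unadjusted p under 0.05 then numbered 5 in the average, 5 in OSKM and 3 in MEF, where 6.95%, 3.98% and 4.16% of all genes had one. The average log2 fold changes without the block were 0.50 to 0.74.

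Of the 12 macrophage markers, 9 were called higher with B12 in the average over both states and 0 lower, where 3.46% and 0.381% of all genes were. In OSKM 5 were called higher and in MEF 7, where 1.05% and 1.37% of all genes were. For the average, edgeR called 1 without clone 2, Mrc1, 5 without clone 3, and 1 without the block, Ptprc. Of all genes, 0.176%, 1.65% and 0.469% were called in these 3 fits. Their summed level was 1191 to 2272 CPM in MEF, 1795 to 3011 in MEF+B12, 1199 to 2079 in OSKM and 1821 to 2390 in OSKM+B12. Most of it was Lyz2, at 739 to 1759 CPM over all libraries. Csf1r, the receptor of the macrophage growth factor, changed by 0.71 ± 0.083 on the log2 scale (edgeR adjusted p = 0.000773), and Mrc1, a mannose receptor, by 0.86 ± 0.076 (adjusted p = 0.000206). The 3 that did not pass were Aif1 at 0.42 ± 0.13 (adjusted p = 0.127), Cx3cr1 at -0.45 ± 0.20 (adjusted p = 0.296), and Mertk at 0.029 ± 0.047 (adjusted p = 0.816). The part of the macrophage markers in the C1q and receptor results was not tested, and in bulk RNA a change in the number of cells of a type and a change in RNA per cell cannot be told apart. Of the 10 fibroblast markers, 0 were called by edgeR and 1 by DESeq2, Thy1, and their median log2 fold change was -0.11. In the B12 average 0 of the 10 had a log2 fold change above 0, where 44.9% of all genes did. By edgeR 4 of the 10 had an unadjusted p under 0.05, where 15.5% of all genes did.

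Levels were therefore also expressed relative to the macrophage list, as the log2 level of a gene minus the mean log2 level of the 12 markers in the same library. With B12, the mean of the 3 C1q chains differed relative to the list by 0.075 ± 0.016 (SD, n = 3 clones) in the average over both states, with 0.085, 0.084 and 0.057 in clones 1 to 3. In MEF alone it differed by 0.037 ± 0.070, with 0.0015, 0.12 and -0.0075 in clones 1 to 3 (exact two-sided sign-flip p = 0.75), and in OSKM by 0.11 ± 0.060, above 0 in 3 of 3 clones. C3ar1 differed by 0.30 ± 0.14 and C5ar1 by 0.31 ± 0.076, and both were above 0 in 3 of 3 clones. The list mean includes Cx3cr1 and Mertk, which did not pass the test, so these values depend on the markers listed. The median log2 fold change of the 12 markers with B12 was 0.53. The mean of C1ra and C1s1 was at -0.56 ± 0.15 relative to the list, C3 at -0.53 ± 0.26 and C4b at -0.52 ± 0.33. With 3 clones, the smallest p an exact two-sided sign-flip test allows is 0.25, which all of the averages over both states reached, so none could pass the threshold.

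**Figure D3:**
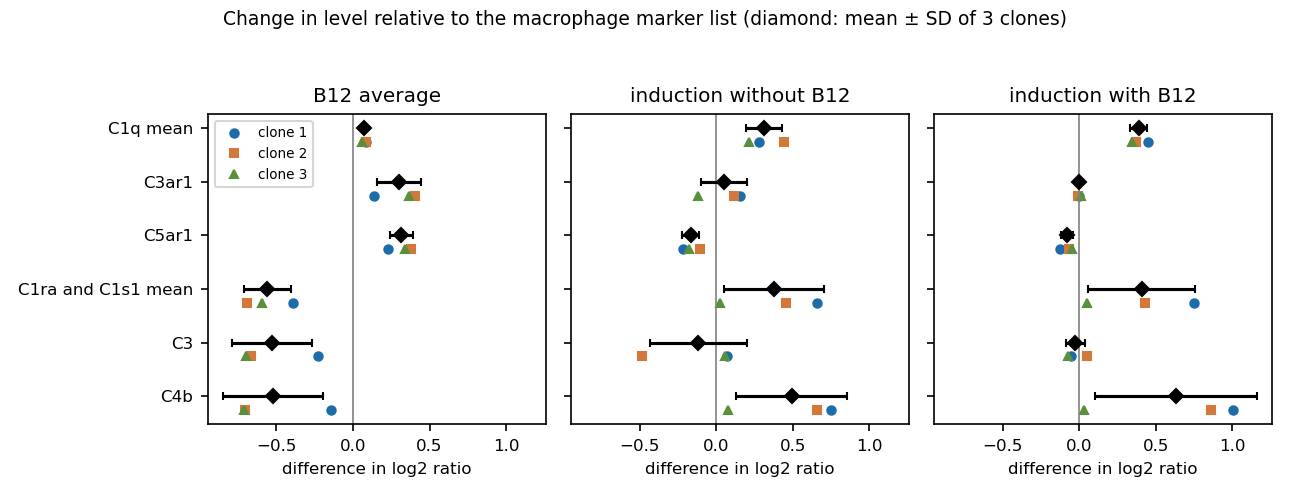
Change in log2 level relative to the mean of 12 macrophage markers, with B12 (left), with induction without B12 (middle) and with induction in the presence of B12 (right), with a diamond for the mean ± SD of 3 clones and coloured symbols for the clones. With B12, the C1q mean lies at 0.075 and the mean of C1ra and C1s1 at -0.56, and with induction the C1q mean lies at 0.31 without and 0.39 with B12.

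The second comparison asks what induction of the factors did to these genes at 72 h. No member passed the test. By edgeR, 0 of 9 were called without B12 (2 at an unadjusted p under 0.05), where 0.073% of all genes were called, and 0 with B12 (3 at an unadjusted p under 0.05), where 0.104% were. At an unadjusted p under 0.05 were 19% of all genes without and 14.9% with B12, so the 2 and 3 members are near the background and are named next as values. Without the OSKM library of clone 1 they were 1 and 5, where 11.5% and 18.7% of all genes were. DESeq2 called 1 and 0 members, where it called 2.54% and 2.17% of all genes. C5ar1 was at 28.2 ± 12.8 CPM (SD, n = 3) in MEF and 20.6 ± 7.12 in OSKM, lower in 3 of 3 clones, with a log2 fold change of -0.43 ± 0.13 and an edgeR adjusted p of 0.168. This was the gene that DESeq2 called, with an adjusted p of 0.0403. With B12 the C5ar1 difference was -0.35 ± 0.13 (edgeR adjusted p = 0.235).

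C3 was at 203 ± 35.6 CPM in MEF and 157 ± 23.8 in OSKM. Its log2 difference was -0.85 in clone 2, -0.29 in clone 1 and 0.029 in clone 3, and the fitted value was -0.37 ± 0.14 (edgeR adjusted p = 0.210). With B12 it was lower in 3 of 3 clones, at -0.31 ± 0.14 (adjusted p = 0.328). Without clone 3, C3 was called without B12, at -0.57 (edgeR adjusted p = 0.0454). In that fit 6.87% of all genes were called, against 0.073% with all clones. C4b differed in the other direction. With B12 its log2 difference was 0.45 in clone 1, 0.61 in clone 2 and -0.0070 in clone 3, with a fitted value of 0.36 ± 0.11 (edgeR adjusted p = 0.194). Without clone 3 it was 0.53 (edgeR adjusted p = 0.0153), where 5.22% of all genes were called, against 0.104% with all clones.

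The C1q chains showed fitted induction differences between 0.0040 and 0.17 in log2, and C1ra and C1s1 between 0.12 and 0.13, with adjusted p-values of 0.292 or more. Macrophage markers were at a median log2 difference of -0.17 without and -0.27 with B12, with 0 of 12 called in each by edgeR and by DESeq2. By edgeR 5 and 7 had an unadjusted p under 0.05, where 19% and 14.9% of all genes did. Without clone 3, edgeR called 3 of the 12 without B12 (Adgre1, Cx3cr1 and Aif1) and 2 with B12 (Adgre1 and Cx3cr1). It then called 6.87% and 5.22% of all genes. Relative to that list, the mean of the C1q chains was higher after induction in 3 of 3 clones, by 0.31 ± 0.12 without B12 and by 0.39 ± 0.055 with it (SD, n = 3). C5ar1 was at -0.17 ± 0.056 and -0.080 ± 0.041 on the same scale. Both reached the smallest possible sign-flip p of 0.25. C3ar1 was at 0.052 ± 0.15 relative to the list, with 0.16, 0.12 and -0.12 in clones 1 to 3, and at 0.00024 ± 0.0098 with B12.

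**Figure D4:**
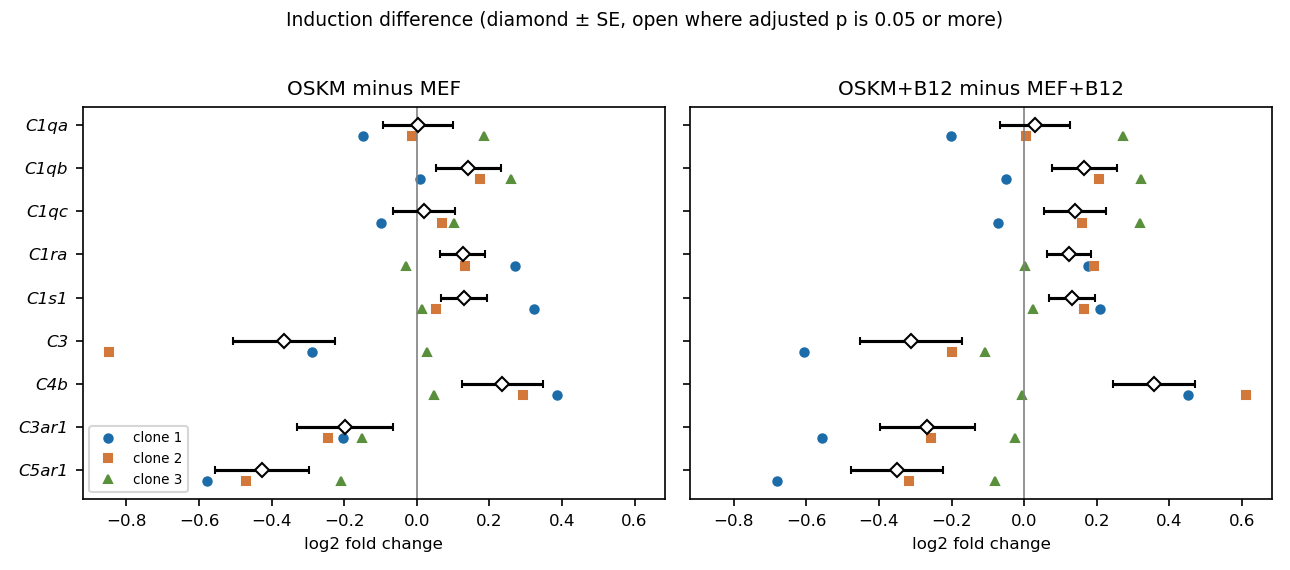
Log2 fold change with induction of the 9 genes without B12 (left) and with B12 (right), where a diamond and its bar give the fitted value ± SE and coloured symbols give clones 1 to 3. All diamonds are open, since no adjusted p was under 0.05. In both panels clone 3 lies nearest to 0 for C1ra, C1s1, C3, C4b, C3ar1 and C5ar1, and farthest from 0 for the C1q chains.

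Whether B12 acted differently in induced and uninduced cells was asked by the interaction, the B12 difference in OSKM minus that in MEF. By edgeR and by DESeq2, 0 of 9 members were called, with 0 at an unadjusted p under 0.05, and 0% of all genes were called, with 1.42% at an unadjusted p under 0.05 by edgeR. The interaction was 0.025 ± 0.14 for C1qa, 0.023 ± 0.13 for C1qb, 0.12 ± 0.12 for C1qc, -0.068 ± 0.19 for C3ar1 and 0.076 ± 0.18 for C5ar1. With these SEs the comparison does not show that B12 acted alike in both states.

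The clones differed in their levels of these genes, in 2 patterns. The C1q chains and the receptors were highest in clone 1 and lowest in clone 3 in all groups, except that clone 2 was highest for C1qb in OSKM+B12 and lowest for C5ar1 in OSKM and OSKM+B12. Averaged over the groups, clone 1 exceeded clone 3 by 0.62 in log2 for C1qa, 0.60 for C1qb and C1qc, 0.71 for C3ar1 and 0.75 for C5ar1. The summed level of the macrophage list had the same order of clones in all groups, at 2272, 1569 and 1191 CPM in MEF for example. Not every marker shared that order. Cx3cr1 was highest in clone 3 in all groups, at 5.23, 3.35 and 6.56 CPM in MEF for clones 1 to 3. In OSKM+B12, Cd68 was at 111, 131 and 133 CPM and Tyrobp at 41.0, 43.6 and 47.3 CPM. C1ra, C1s1 and C4b had another order, with clone 2 highest and clone 1 lowest in 4 of 4 groups. The largest difference was that of C4b, which was 1.29 log2 units lower in clone 1 than in clone 2. C3 had no constant order. A test of whether the induction response differed between clones called 0 of 9 members by edgeR, where 2.15% of all genes were called, and 0 by DESeq2. At an unadjusted p under 0.05 there were 4 by edgeR, C1qa, C1ra, C1s1 and C4b, with adjusted p-values of 0.217 to 0.246, where 14.8% of all genes had such a p. Without the OSKM library of clone 1, edgeR called 4 members, C1qa, C1qb, C3ar1 and C5ar1, and 4.3% of all genes.

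The rest of the pathway was examined through a list of 48 other complement genes, of which 34 passed the filter on low counts and 4 (Mbl1, Fcnb, C8b and Cpb2) had 0 counts in every library. With B12, 5 of the 34 were called higher and 1 lower in the average over both states, where 3.46% and 0.381% of all genes were. The median log2 fold change of the 34 was -0.018. Without clone 2, edgeR called 0 of the 34, with 7 at an unadjusted p under 0.05, where 0.176% and 9.35% of all genes were. Without clone 3 it called 3 of 35, Fcna, Cfp and Cd93, and 1.65% of all genes. With no clone block it called 0, with 4 at an unadjusted p under 0.05, where 0.469% and 6.95% of all genes were. Cfp encodes properdin, which stabilises the enzyme of the alternative pathway. It was at 69.0, 40.6 and 31.9 CPM in MEF for clones 1 to 3, 100.7, 70.1 and 53.8 CPM in MEF+B12, 38.4, 28.3 and 27.7 CPM in OSKM and 64.2, 48.7 and 52.6 CPM in OSKM+B12. It was higher in every pair, by 0.76 ± 0.089 in log2 (edgeR adjusted p = 0.000793). Fcna, a ficolin that recognises microbial sugars, was low, at 2.98 to 5.76 CPM without and 4.78 to 10.6 CPM with B12, and rose by 0.73 ± 0.093 (adjusted p = 0.00127).

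Of the 6 other complement receptors and receptor chains tested, 3 were called higher in the average over both states, 2 in MEF and 0 in OSKM. The shares of all genes called higher were 3.46%, 1.37% and 1.05%. In OSKM, 3 had an unadjusted p under 0.05 by edgeR, DESeq2 called 3, and edgeR called 1, Itgb2, without the OSKM library of clone 1. Itgb2, the shared beta chain of complement receptors 3 and 4, rose by 0.54 ± 0.083 (edgeR adjusted p = 0.00391). Itgam, the alpha chain of complement receptor 3, rose by 0.51 ± 0.097 (adjusted p = 0.0123), and 66.3% of its 50-base words were shared with the overlapping gene Gm49368, so that its level is uncertain. Cd93, a surface protein once described as a C1q receptor, rose by 0.42 ± 0.060 (adjusted p = 0.00266). The 3 that did not pass were C5ar2 at 0.54 ± 0.25 (adjusted p = 0.326), Cr1l at 0.042 ± 0.040 (adjusted p = 0.668) and Itgax at -0.24 ± 0.28 (adjusted p = 0.731). The gene that fell was Masp1, which encodes a protease of the lectin pathway. It was between 21.2 and 32.2 CPM without B12 and between 17.9 and 29.0 CPM with it, and its log2 fold change was -0.20 ± 0.038 (adjusted p = 0.0115). EdgeR called Masp1 in neither state alone, and not in the average whichever clone was left out. DESeq2 called it in the average and in OSKM.

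By role, 1 of the 2 genes tested in the alternative pathway list, 3 of 6 other receptors and 1 of 5 lectin pathway genes were called higher. Among 4 classical pathway genes, 3 terminal pathway genes and 14 regulators and inhibitors, edgeR called 0, and DESeq2 called 1, the regulator Clu. In those lists 0, 2 and 2 had an unadjusted p under 0.05 by edgeR, where 15.5% of all genes did. The paralogs C1rb, C1s2 and C4a were at -0.093 ± 0.051, -0.077 ± 0.040 and -0.091 ± 0.073 in log2, beside the values of their member partners. The combined level of the terminal pathway genes was 2.22 to 3.75 CPM over all libraries, so that the RNA of the membrane attack components was scarce in these cultures. The regulators, a longer list of 17 genes, summed to 732 to 929 CPM, of which Serping1 alone was 390 to 518 CPM. These sums were not scaled to gene length. In the induction comparisons, edgeR called 0 of the 34 genes, with 14 without and 11 with B12 at an unadjusted p under 0.05, where 19% and 14.9% of all genes were. DESeq2 called 3 and 4, where it called 2.54% and 2.17% of all genes. Without the OSKM library of clone 1 those with an unadjusted p under 0.05 by edgeR were 5 and 15, where 11.5% and 18.7% of all genes were. Without clone 3, edgeR called 6 of 35 in each comparison, of which C2, Cfp, Cd93 and Cd55 were in both, where it called 6.87% and 5.22% of all genes.

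**Figure D5:**
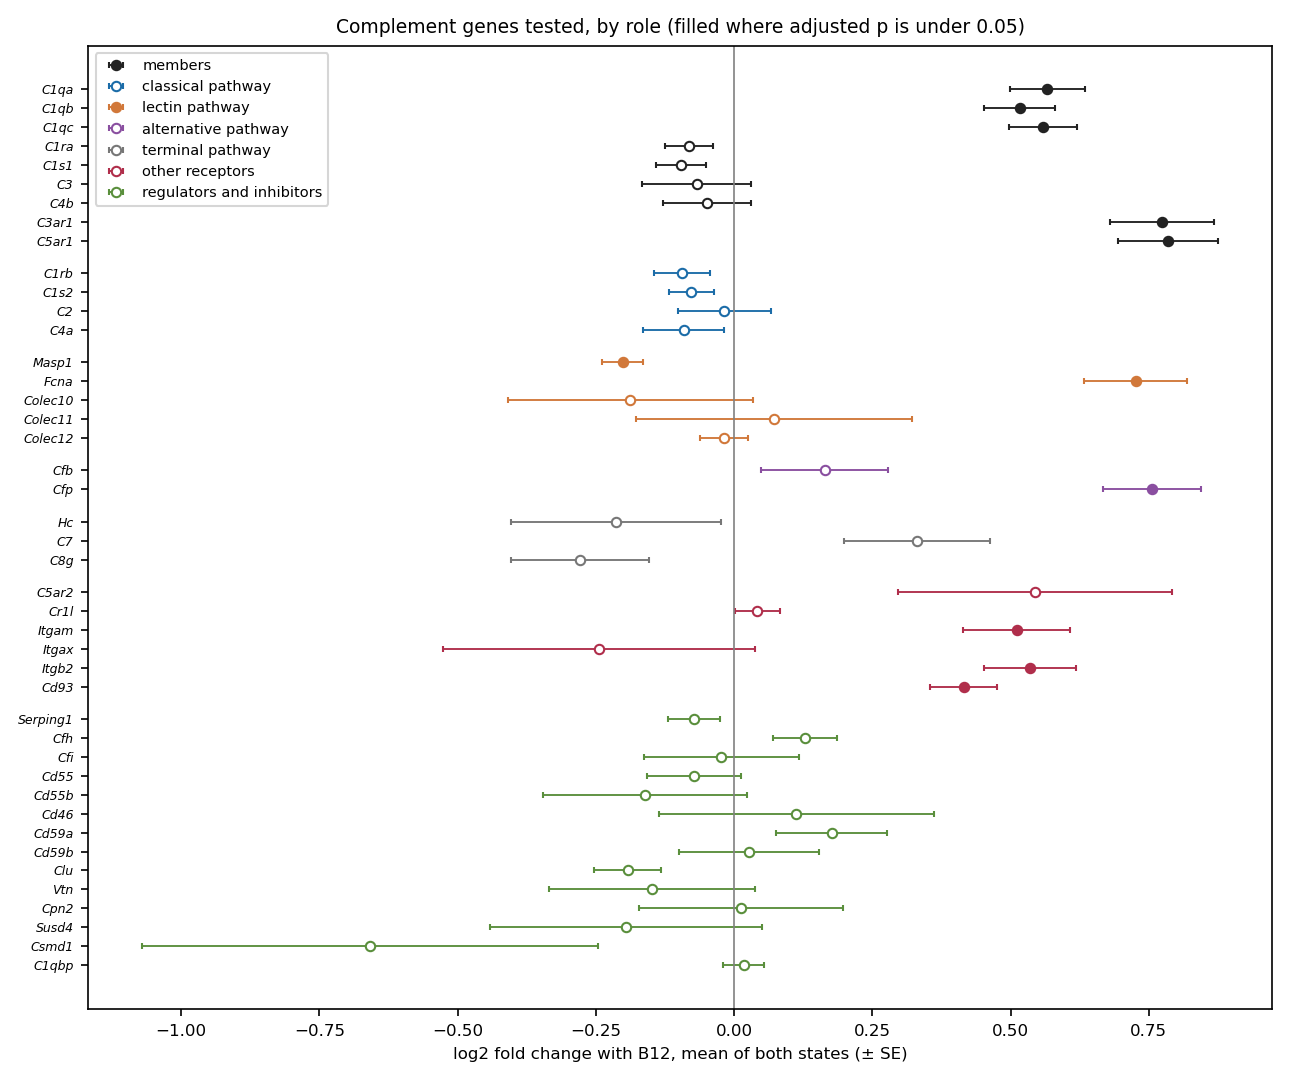
Log2 fold change with B12, averaged over both states (± SE), of the 9 members and the 34 other complement genes tested, grouped by role, with filled points where the adjusted p was under 0.05. The filled points right of 0 are C1q chains, receptors and receptor chains, Cfp and Fcna, the filled point left of 0 is Masp1 at -0.20, and the classical proteases and the regulators lie around 0.

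Last, the genes whose levels followed each member most closely were found among 12049 tested genes with a mean log2 CPM of at least 1, by the root mean square difference between centred log2 levels over the 12 libraries. For the mean of the C1q chains these were Ncf1 (0.12), Klhl6 (0.12) and Pld4 (0.13), against 0.38 for the profile's own departure from its mean. For C3ar1 they were Msr1, Fermt3 and Nckap1l, at 0.10 to 0.11. For C5ar1 they were Btk, Cfp and Plau, at 0.11 to 0.12. For the mean of C1ra and C1s1 they were their paralogs C1s2 (0.029) and C1rb (0.037), with which they share sequence, and Klf9 (0.060). For C4b they were Ptgds, C4a and Cyb561, at 0.12 to 0.17. For C3 they were Sdk1, Lgi2 and Zim1, at 0.10 to 0.12, against 0.27 for the profile of C3 itself. The 12 libraries share their clones and groups, so these distances describe the libraries and were not tested.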

How the data were processed

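RNA of 12 cultures was sequenced as strand-specific poly(A) libraries. The authors aligned read pairs to mm10 (GRCm38) with STAR (version 2.5.2 in the submitters' processing notes), and featureCounts, set to the reverse strand, gave the counts of pairs. The table the authors deposited holds these counts unnormalized, with the technical runs of a library summed. How multi-mapping reads were treated is not given in the sources used here. Symbols and coordinates (1-based) came from GENCODE M21, which matched 55480 of 55573 genes. Library totals ranged from 56971244 to 79236795 counts, and between 24880 and 25728 genes had at least 1 count. Reads carry no molecular identifiers, so depth speaks for counting error only.

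CPM were computed here with TMM factors (0.934 to 1.06), and log2 CPM with a prior count of 2. The test was edgeR 4.0.16 (quasi-likelihood F test, filterByExpr by group, 19174 genes, Benjamini-Hochberg, threshold 0.05) in one fit of all 12 libraries with clone and group as terms. The ± after a log2 fold change is its SE. The clone term served as a block, since cells of each embryo are present in every group, and the pairing was checked. Same-clone libraries deviated together from their group means (correlations across genes of 0.270 to 0.687 over 18 pairs, at most 0.170 between clones). Whether an induction response differed between clones was tested with clone by state terms. The scripts were tested on simulated data. Alternatives were DESeq2 1.42.0, its size factors, library totals, no filter, a minimum of 10 counts per library, fits restricted to a comparison's own libraries, a fit without the block, leaving out each clone or the OSKM library of clone 1, and summed paralog counts.

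The members, gene lists, markers and tests were chosen with earlier results of these data known. All 9 members are described. Other complement genes were named where they passed the threshold in the B12 average, an induction comparison or the clone difference, had 0 counts throughout, or are paralogs of members. Thy1, Clu, the other receptors that did not pass and the markers with values were named after those values were seen. The 3 most similar genes per profile excluded Gm and Rik names.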

Additional observations from a re-analysis of the deposited data

Results flagged for a closer look

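Among the complement genes beyond the members, 2 responded to induction differently in the 3 clones by the edgeR F test, where 2.15% of all genes tested did. Without the OSKM library of clone 1 edgeR called 6 (C2, Colec12, Cfp, C5ar2, Cd55 and Clu), where it called 4.3% of all genes. Without clone 3 it called 0, with 2 at an unadjusted p under 0.05, where 0% and 5.27% of all genes were. DESeq2 called 3 with all libraries (C2, Cfp and Cd55), where it called 3.11% of all genes. Cd55, a membrane inhibitor of complement enzymes, had an adjusted p of 0.0200. Its log2 difference with induction was 0.73, 0.45 and 0.061 in clones 1, 2 and 3 without B12, and 0.53, 0.61 and 0.039 with B12, and its level was 98.4 and 103 CPM in MEF and OSKM of clone 3 against 114 and 189.7 CPM in clone 1. Cfp, which encodes properdin, had an adjusted p of 0.0277. Its log2 difference with induction was -0.84, -0.52 and -0.20 in clones 1, 2 and 3 without B12, and -0.65, -0.52 and -0.032 with B12. The induced libraries of clone 3 also held the least Pou5f1 RNA, at 2.34 to 2.86 CPM, and the part of that in these differences was not tested.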

How the results depend on the processing

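The number of members called with B12 (5 in the average, in OSKM and in MEF) was 5 in all 3 comparisons under DESeq2, its size factors, library totals, no filter, at least 10 counts in every library and summed paralog counts. In the pairing by clone, the fit with no replicate block called 0, 0 and 0 members. Leaving out 1 clone gave 0 to 5 called in each of the 3, with 0 in all 3 without clone 2, and leaving out the OSKM library of clone 1 gave 5, 3 and 5. A fit to only the libraries compared called 4 in OSKM. The causes were not tested. Over all genes, 736 were called in the B12 average, 90 with no block and 34 without clone 2. For induction, 0 members became 1 (C5ar1) with DESeq2 and with no filter in the comparison without B12, 1 (C4b) with no filter in that with B12, and 0 to 1 when 1 clone was left out. Over all genes, edgeR called 14 without and 20 with B12 for induction, and 1322 and 1004 when clone 3 was left out. For the clone difference, 0 became 4 with no filter and 4 without the OSKM library of clone 1, and 0 to 1 when 1 clone was left out.

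Of 630 alternative values of member fold changes, 558 kept their direction and their side of the threshold, 43 fell short of it, 5 newly passed it and 24 changed sign, and the 24 were all of members not called in the comparison. When a clone or the OSKM library of clone 1 was left out, C4b ranged from -0.14 to 0.020 in the B12 average and from -0.071 to 0.11 in OSKM, and C3 from -0.17 to 0.079 in OSKM and from -0.25 to 0.077 in MEF. With induction, C1qa ranged from -0.084 to 0.091 without and from -0.096 to 0.13 with B12, and C1qc from -0.019 to 0.089 without B12. With no block C1qa was at -0.019 and -0.0028. The interaction ranged from -0.012 to 0.041 for C1qa, -0.0068 to 0.041 for C1qb, -0.042 to 0.054 for C1ra, -0.061 to 0.073 for C1s1, -0.25 to 0.24 for C3 and -0.18 to 0.052 for C3ar1. That of C1ra was 0.0019 with no filter, 0.00042 with at least 10 counts and 0.0057 with no block, and that of C1s1 was -0.014 with library totals. Relative to the fibroblast list in place of the macrophage list, the B12 differences of C1ra and C1s1 together, C3 and C4b were 0.026, 0.053 and 0.063. Relative to the macrophage list, the direction of all 6 values stayed when 1 clone was left out. With 3 clones, the ratios cannot reach a p below 0.25, and each member had at least 917 counts in every library.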
